A study of Homo sapiens with 9 samples.

Results

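The mitotic spindle and G2/M genes are 42 genes whose products take a cell from G2 phase into mitosis, build the spindle, separate the chromosomes and divide the cytoplasm. They were listed by symbol for what their products do. Every probe whose transcript identifier maps to a listed symbol was taken, and the probe with the highest mean level over the 9 arrays stood for its gene. Of the 42 genes, 41 matched a probe and were tested, among 19721 genes with a named probe and 33509 probes tested in all, and *UBE2C* matched no probe. Each of the 41 was well above background on all 9 arrays, so that no member depended on the filter on dim probes.

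The RNA came from ALL-SIL cells, an established human line of T cell acute lymphoblastic leukemia (T-ALL), electroporated with a control siRNA, with *PHF6* siRNA1 or with *PHF6* siRNA2. Each of the 3 treatments was measured on 3 one-colour Agilent arrays, 1 under each of the replicate numbers 1, 2 and 3, which the labels call independent biological replicates. Collection was 96 h after electroporation in most labels and 72 h in a free-text description. Replicates 1 and 2 were hybridized on 1 slide, in its rows 1 and 2, and replicate 3 on another slide, while each treatment kept its column on both slides. Replicate 3 therefore cannot be told apart from its slide, replicate 1 from its row, nor a treatment from its column. All values describe 1 cell line. A level is given below as the log2 intensity of a probe after variance stabilizing normalization (VSN), and a gene is called where its adjusted p from limma, over all 33509 probes, was under 0.05. The number of arrays limits the precision of every difference.

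Transcripts of these genes are scarce after cell division and build up again as a cell passes through G2 phase, under activators such as FOXM1 and B-MYB and a repressor complex named DREAM. Cyclin B with CDK1 starts mitosis, Aurora and Polo-like kinases build the spindle, the checkpoint holds the chromosomes until each kinetochore is attached, and CDC20 then directs the degradation of securin and of cyclin B. Leukemia lines grown in culture divide continually and express the whole program. In RNA from a whole culture, a larger share of cells in G2 phase and mitosis and more of such RNA per cell cannot be told apart.

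The label of the line was checked on markers of its lineage. All 11 genes of the T cell marker list that matched a probe were well above background on 9 arrays, among them *CD3E*, a chain of the T cell receptor complex. *TLX1*, a homeobox gene, is on that list too and is not read here as a sign of T cell identity. Of the markers of B cells, *CD22* and *BLNK* were above background on 0 arrays, *PAX5* on 2, *MS4A1* on 3 and *CD79A* and *CD79B* on 9. Of the myeloid markers, *FCGR3A*, *S100A8* and *S100A9* were above background on 0 arrays, *CSF1R* on 6, *MPO* on 7 and *CD14*, *CD68* and *ITGAM* on 9, and of the erythroid markers *HBB* on 0, *AHSP* on 7 and *HBG1*, *ALAS2* and *KLF1* on 9. Among markers of fibroblasts and epithelium, *COL1A2*, *COL3A1*, *LUM*, *DCN*, *EPCAM* and *CDH1* were above background on 0 arrays, *COL1A1* on 1 and the keratins *KRT8*, *KRT18* and *KRT19* on 9. The target of the siRNAs was read next. The *PHF6* probe A_23_P171385 had log2 levels of 11.06, 11.16 and 10.85 with control siRNA, 9.38, 9.68 and 9.11 with siRNA1 and 9.19, 9.27 and 9.13 with siRNA2. The 6 siRNA arrays all lay below the 3 control arrays, and *PHF6* fell by 1.73 log2 units with both siRNAs (SE 0.14, adjusted p = 0.00246). With VSN on the processed signal the log2 difference was -1.84 and no longer passed (adjusted p = 0.0555), against 7.75e-05 to 0.0488 under the other alternatives.

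Promoters of the group were compared with those of all genes. The counts of motifs use no level from the arrays and do not bear on the differences between replicate numbers. The promoter table of RefSeq, on GRCh38.p14, gives 250 bases before and 50 after a start site, and 34 of the 42 genes have 43 such windows in it. *FOXM1*, *AURKA*, *PBK*, *TPX2*, *BIRC5*, *BUB3*, *TTK* and *UBE2C* have none. The motifs searched on both strands were CCAAT, a binding site of NF-Y, TTTGAA, a form of the cell cycle genes homology region (CHR) bound by MuvB complexes, its variant TTCGAA, and TTTCGCGC or TTTGGCGC, forms of the E2F site. CCAAT was found in 33 of the 43 windows (76.7%), against 34.6% of all 35116 windows of the table. TTTGAA was found in 26 of the 43 (60.5%), against 15.2% of all windows, and TTCGAA in 3 (6.98%) against 1.45%. CCAAT and TTTGAA occurred together in 22 of the 43 windows (51.2%) and in 5.9% of all windows. The E2F forms were found in 3 windows (6.98%), against 1.15% of all windows. Windows of the 40 listed genes of DNA replication and S phase, of which 35 have 47 windows, served for comparison: 24 of them hold CCAAT (51.1%), 2 TTTGAA (4.26%) and 12 an E2F form (25.5%). A match is a run of letters and not a measured binding site.

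The 150 bases before the start site are printed for the members with a single window that had, in their role, the largest moderated t statistic between replicates 2 and 1, and for *ESPL1*, which was lower in replicate 3. They show how close to the start site the motifs lie. Capitals mark CCAAT and TTTGAA on either strand (ATTGG and TTCAAA on the strand shown), sequences read 5′ to 3′ in the direction of the gene, and the source is RefSeq on GRCh38.p14.
*PLK1*, chr16:23678739-23678888, plus strand: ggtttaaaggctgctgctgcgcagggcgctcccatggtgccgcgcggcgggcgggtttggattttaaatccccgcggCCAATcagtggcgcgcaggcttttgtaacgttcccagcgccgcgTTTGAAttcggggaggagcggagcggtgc
*CENPA*, chr2:26785906-26786055, plus strand: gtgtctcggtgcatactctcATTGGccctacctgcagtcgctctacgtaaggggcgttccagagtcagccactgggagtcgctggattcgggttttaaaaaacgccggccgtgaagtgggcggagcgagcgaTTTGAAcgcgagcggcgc
*KIF23*, chr15:69414199-69414348, plus strand: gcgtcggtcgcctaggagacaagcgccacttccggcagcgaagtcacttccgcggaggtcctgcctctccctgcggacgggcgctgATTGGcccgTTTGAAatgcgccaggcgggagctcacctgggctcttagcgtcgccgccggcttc
*PRC1*, chr15:90994536-90994685, minus strand: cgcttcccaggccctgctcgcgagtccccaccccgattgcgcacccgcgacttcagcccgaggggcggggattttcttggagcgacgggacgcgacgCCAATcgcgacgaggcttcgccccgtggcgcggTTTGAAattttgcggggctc
*MKI67*, chr10:128126424-128126573, minus strand: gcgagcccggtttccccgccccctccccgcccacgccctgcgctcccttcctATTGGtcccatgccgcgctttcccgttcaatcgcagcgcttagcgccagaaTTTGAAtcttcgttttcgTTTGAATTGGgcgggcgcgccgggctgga
*CDC20*, chr1:43358831-43358980, plus strand: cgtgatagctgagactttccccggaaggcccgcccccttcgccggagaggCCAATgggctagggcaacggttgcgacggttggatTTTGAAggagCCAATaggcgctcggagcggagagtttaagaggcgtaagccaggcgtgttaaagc
*ESPL1*, chr12:53268149-53268298, plus strand: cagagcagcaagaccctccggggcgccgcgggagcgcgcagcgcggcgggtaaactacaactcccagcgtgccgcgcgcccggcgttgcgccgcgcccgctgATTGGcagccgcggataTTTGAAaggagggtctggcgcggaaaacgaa

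Within these 150 bases, counted back from -1 at the last base before the start site, CCAAT starts in *PLK1* at -73 and TTTGAA at -29. In *PRC1* they start at -53 and -20, and in *ESPL1* the reverse of CCAAT starts at -48 and TTTGAA at -31. In *CENPA* TTTGAA lies closest, at -18, with the reverse of CCAAT at -130. *MKI67* holds TTTGAA at -47 and -29 and the reverse of CCAAT at -98 and -24, and there the last TTTGAA and the last ATTGG share 1 letter. *CDC20* holds CCAAT on both sides of its TTTGAA, at -100 and -55, with TTTGAA at -65, and in *KIF23* the reverse of CCAAT at -64 is followed by TTTGAA at -55.

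With *PHF6* lowered, the mitotic spindle and G2/M genes were not found to differ from control. Under both siRNAs together 0 of the 41 members were called by limma, where 0.00895% of all probes were called, and 0 had an unadjusted p under 0.05. The log2 differences of the brightest probes ran from -0.14 (*CCNB1*) to 0.20 (*MKI67*), with 19 above 0 and 22 below, and 0 members had all 6 siRNA arrays on the same side of the 3 control arrays, as 3.89% of all probes did. The 95% intervals of all 41 members lay within a log2 difference of 1 in either direction and those of 33 within 0.5, and the outermost bounds were -0.59 (*CENPA*) and 0.67 (*MKI67*). Larger changes than these lie outside the intervals. The smallest adjusted p of a member was 0.876.

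The single siRNAs gave the same counts of members called and of members with an unadjusted p under 0.05 by limma. Other counts differed: 26 members lay above 0 with siRNA1 and 12 with siRNA2, and the intervals of 24 and 23 members lay within 0.5. With siRNA1 0 members were called by limma, against 0.00895% of all probes, and 0 had an unadjusted p under 0.05. With siRNA2 the counts were 0 called and 0 with an unadjusted p under 0.05 by limma, against 0.0119% of all probes called. Between siRNA2 and siRNA1 0 members were called by limma and 0 had an unadjusted p under 0.05, and 0% of all probes were called. With the replicate number as a block, 2.74% of all probes were called under both siRNAs, 0.961% under siRNA1, 1.66% under siRNA2 and 0.0388% between the siRNAs, while the members called by limma stayed at 0 in each, with an unadjusted p under 0.05 for 0, 0, 0 and 1 members. In that fit the intervals under both siRNAs lay within 0.5 for all 41 members, from -0.46 (*MAD2L1*) to 0.45 (*NEK2*), and the smallest adjusted p was 0.309. The median difference of the members was -0.01 for both siRNAs, but it changed direction with the scaling, from -0.07 with VSN on the processed signal to 0.06 with normexp and quantile normalization. It was also -0.14 without control siRNA replicate 1 and 0.14 without control siRNA replicate 2.

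**Figure D1:**
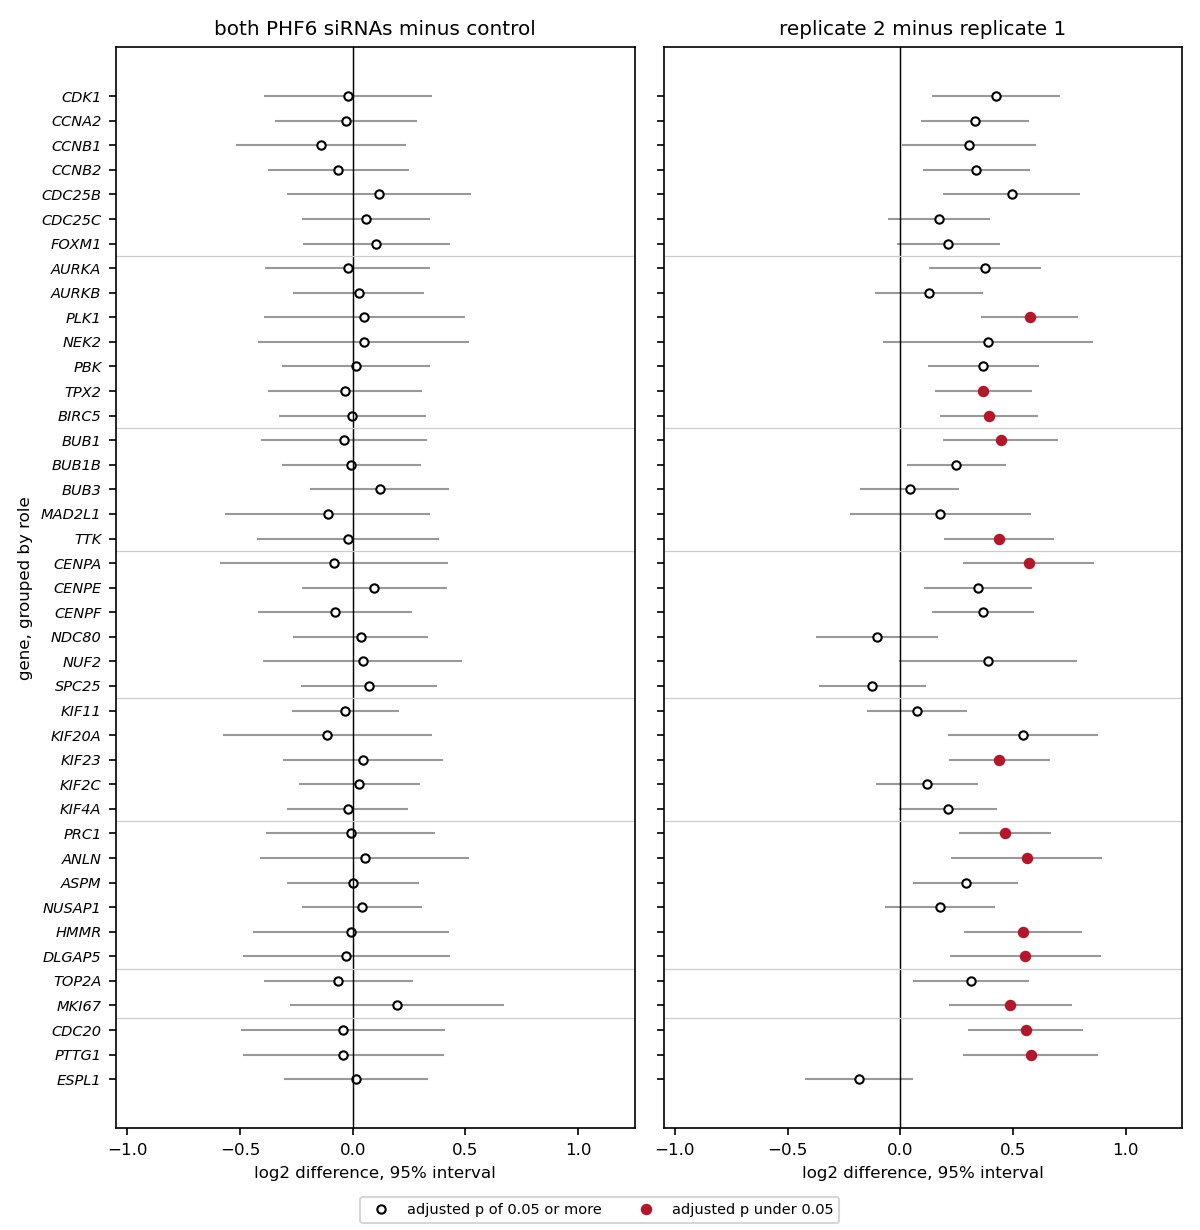
Log2 differences of the 41 members with 95% intervals, both *PHF6* siRNAs minus control on the left and replicate 2 minus replicate 1 on the right, with filled points for an adjusted p under 0.05 and genes grouped by role. All intervals on the left include 0, and on the right 14 members are filled and 38 of 41 points lie above 0. The left panel is from the fit without the replicate block, and the right has treatment in the fit.

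The plot of the differences sets the siRNA comparison beside the comparison of replicates 2 and 1 on the same axis. The siRNA panel is from the fit without the replicate block, so its intervals hold the spread between replicate numbers. Those of the replicate panel, with treatment in the fit, do not. The median SE of the members under both siRNAs was 0.15, and 0.09 with the block, where 0 members were called by limma as well. No point is filled in the siRNA panel, where the points lie close to 0 with intervals on both sides of it. In the replicate panel most points are displaced to the right by more than any point of the siRNA panel.

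Within a replicate number, the siRNA arrays were set against the control array of the same number. In replicate 1 the median of the members was 0.10 for siRNA1 minus control, with 35 of 41 above 0, and 0.16 for siRNA2 minus control, with 33 above 0. For siRNA1 it was 0.02 with VSN on the processed signal, with 22 above 0, and 0.04 with 75th percentile scaling, with 28 above 0. In replicate 2 the medians were -0.09, with 10 above 0, and -0.21, with 4 above 0. Across the scalings the replicate 2 medians ran from -0.18 to 0.06 for siRNA1 and from -0.36 to -0.10 for siRNA2. In replicate 3 they were 0.08 for siRNA1, with 35 above 0 (0.02 with VSN on the processed signal, with 26 above 0, and 0.02 in the deposited table, with 23), and -0.03 for siRNA2, with 19 above 0, the last turning to 0.03 with VSN on the processed signal and 0.06 with 75th percentile scaling. The members thus lay mostly above the control in replicate 1 and mostly below it in replicate 2, except that with normexp and quantile normalization the replicate 2 median for siRNA1 was 0.06 (for siRNA2 it was -0.10). Medians over all probes were between -0.02 and 0.02 in these 6 comparisons of 1 array with 1 array, which have no replicate check.

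**Figure D2:**
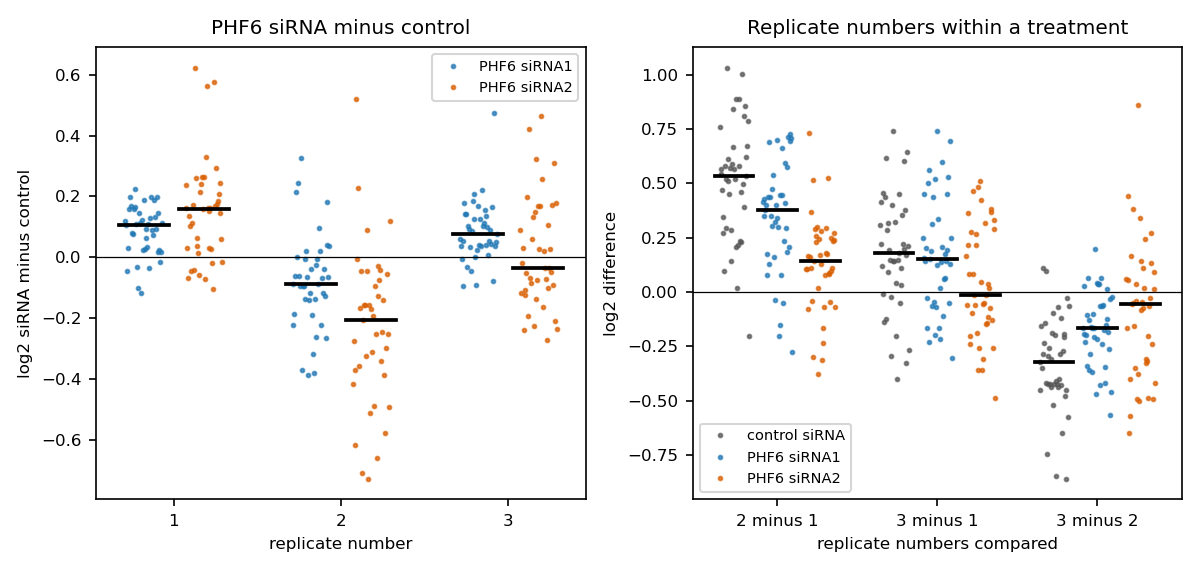
Log2 differences of the 41 members, 1 point per gene with the median as a bar, for each *PHF6* siRNA minus control within a replicate number on the left and for pairs of replicate numbers within a treatment on the right. The control cells hold the largest displacement, a median of 0.53 for replicate 2 minus replicate 1, and the siRNA medians on the left lie between -0.21 and 0.16, where the replicate 2 median of siRNA1 was above 0 after normexp and quantile normalization and the replicate 3 median of siRNA2 above 0 with VSN on the processed signal or 75th percentile scaling.

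The right panel of the plot of single arrays compares replicate numbers within a treatment. From replicate 1 to replicate 2 the median member differed by 0.53 in control cells, by 0.38 with siRNA1 and by 0.14 with siRNA2, so that the control array stood highest in replicate 2. The numbers of members above 0 were 40, 36 and 31 of 41. With VSN on the processed signal the siRNA2 median was 0.04, with 30 above 0. The difference between these 3 medians was not tested.

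Between replicate numbers, in contrast to treatments, members were called. In replicate 2 compared with replicate 1, with treatment in the fit, 14 of the 41 members were called higher, where 4.35% of all probes were called higher, and 0 were called lower by limma, where 4.21% of all probes were. An unadjusted p under 0.05 was found for 27 members. The median difference was 0.37 and 38 members lay above 0, while the median over all probes was -0.01. In 28 members all 3 arrays of replicate 2 lay above all 3 arrays of replicate 1, as in 10.6% of all probes. Within each of the 3 treatments 29 members were higher in replicate 2, a count for which the share of all probes was not computed. The 14 were *PLK1*, *TPX2*, *BIRC5*, *BUB1*, *TTK*, *CENPA*, *KIF23*, *PRC1*, *ANLN*, *HMMR*, *DLGAP5*, *MKI67*, *CDC20* and *PTTG1*. By role, 4 of 6 spindle, midzone and cytokinesis genes, 2 of 3 anaphase genes, 3 of 7 kinases and their activators, 2 of 5 checkpoint genes and 1 of 2 chromosome structure genes were called, with 1 of 6 centromere and kinetochore genes, 1 of 5 kinesins and 0 of 7 cyclins and regulators of CDK1 (5 with an unadjusted p under 0.05 by limma). The direction held under each scaling, with medians of 0.36 to 0.39, but the count did not: it was 2 with VSN on the processed signal (*PLK1* and *PRC1*), 3 with 75th percentile scaling (these and *CDC20*) and 23 with normexp and quantile normalization. Without 1 array it was 1 (control siRNA replicate 1), 0 (*PHF6* siRNA1 replicate 1, with 24 at an unadjusted p under 0.05 by limma), 8 (*PHF6* siRNA2 replicate 1), 3 (control siRNA replicate 2), 0 (*PHF6* siRNA1 replicate 2, with 25 at an unadjusted p under 0.05 by limma), 8 (*PHF6* siRNA1 replicate 3) and 8 (*PHF6* siRNA2 replicate 3), while the median stayed between 0.28 and 0.44. The calls among all probes changed with the scaling too. Against 1456 called higher above, there were 841 with VSN on the processed signal and 1032 with 75th percentile scaling. With normexp and quantile normalization there were 1944. For the omissions of 1 array the share of all probes is not given, so those counts have no background beside them.

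**Figure D3:**
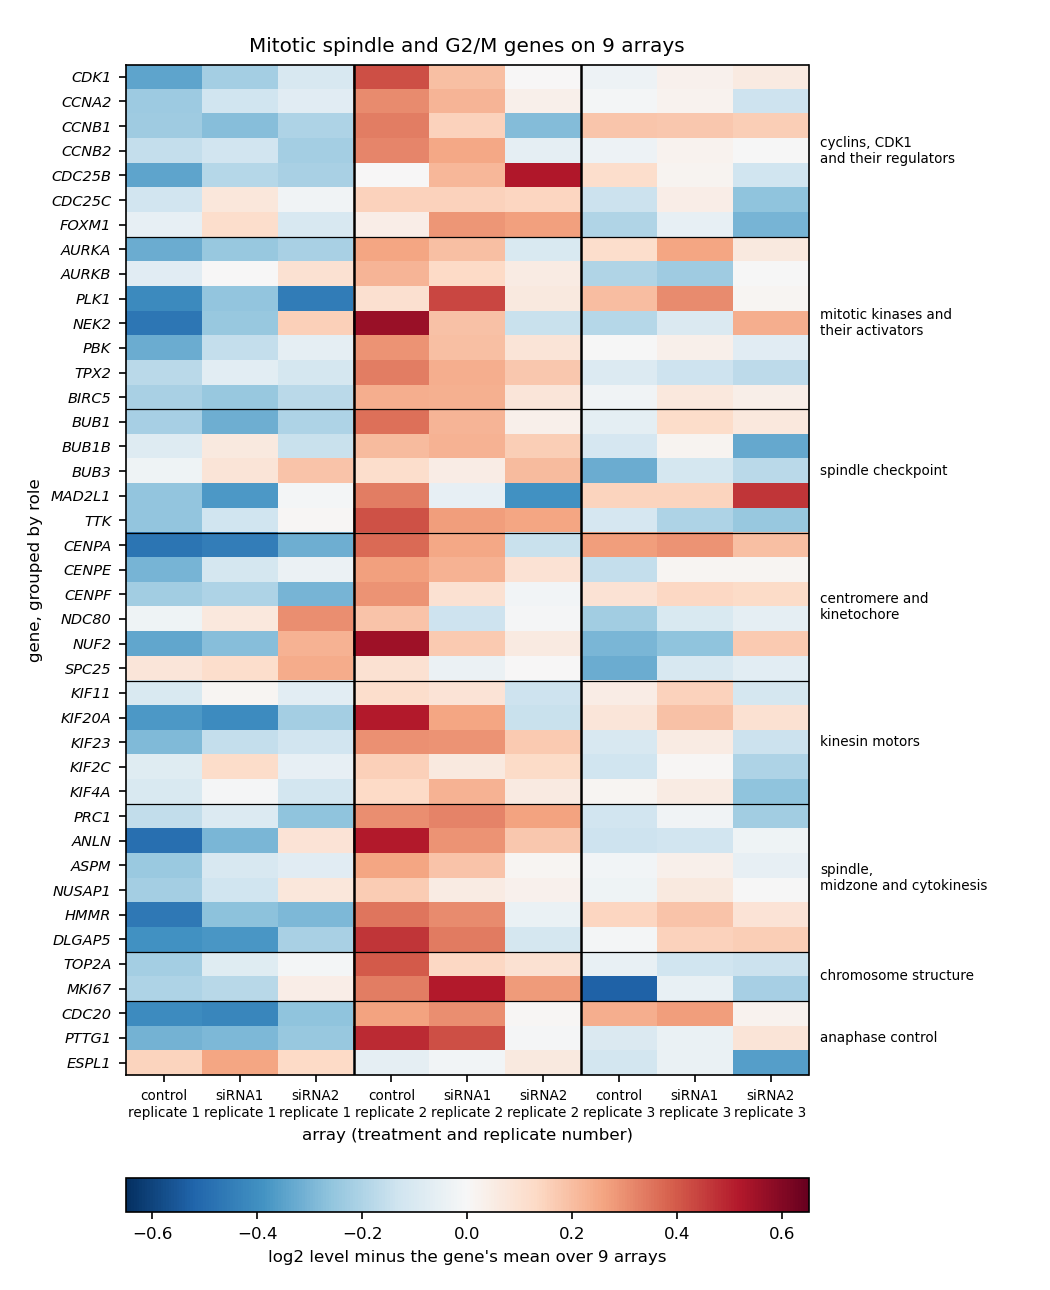
Log2 level of each of the 41 members on each of the 9 arrays minus its mean over the arrays, in color, with genes grouped by role and arrays by replicate number. Replicate 1 is mostly blue (below the mean) and replicate 2 mostly red, most deeply in control cells, and *ESPL1* is higher in replicate 1 than in replicate 2 under each treatment.

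The heat map of all arrays shows the same members by treatment and replicate number. The median level of the 41 members was 12.01, 12.02 and 12.08 in replicate 1 (control, siRNA1, siRNA2), 12.49, 12.39 and 12.23 in replicate 2 and 12.33, 12.41 and 12.40 in replicate 3. All 3 arrays of replicate 1 thus had lower medians than the other 6.

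Replicate 3 was also set against replicates 1 and 2, comparisons that share those arrays with the first and are given by their own values. Against replicate 1, 8 members were called higher, where 12.3% of all probes were, and 1 was called lower, where 17.3% of all probes were. The 8 were *PLK1*, *CENPA*, *CDC20*, *HMMR*, *AURKA*, *CENPF*, *CCNB1* and *KIF20A*, and the 1 was *ESPL1*. The median was 0.12, with 28 members above 0, and it was 0.06 with VSN on the processed signal and 0.04 without control siRNA replicate 1. Within the siRNA2 arrays alone it was -0.01, with 20 of 41 above 0. Of all probes called, 41.6% were higher, a share of 31.2% with VSN on the processed signal and 57.7% with 75th percentile scaling, and the members' calls were 2 higher and 2 lower with the former (*PLK1* and *CDC20*, *NDC80* and *ESPL1*), 5 higher and 1 lower with the latter (*AURKA*, *PLK1*, *CENPA*, *HMMR* and *CDC20*, *ESPL1*) and 15 higher with normexp and quantile normalization, where *ESPL1* was not called. The count of 9 became 3 without control siRNA replicate 1, 2 without *PHF6* siRNA1 replicate 1, 4 without *PHF6* siRNA1 replicate 3 and 3 without *PHF6* siRNA2 replicate 3.

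Against replicate 2, 0 members were called higher in replicate 3 by limma, where 10.8% of all probes were, and 8 were called lower, where 14.7% of all probes were, with 13 members at an unadjusted p under 0.05. The 8 were *MKI67*, *PRC1*, *TTK*, *TPX2*, *FOXM1*, *BUB1B*, *BUB3* and *KIF23*. The members' share of lower calls is to be read against that of all probes, which is of like size. The median was -0.20 and 36 of 41 members lay below 0. Of all probes called, 42.4% were higher, a share of 35.1% with VSN on the processed signal and 60.4% with 75th percentile scaling, and the members called were 3 with the latter (*BUB1B*, *PRC1* and *MKI67*). With the former 7 members were called lower, where *TPX2*, *BUB3* and *TTK* were lost and *AURKB* and *ESPL1* were gained. The count of 8 became 5 without *PHF6* siRNA1 replicate 1, 4 without control siRNA replicate 2, 3 without *PHF6* siRNA1 replicate 2, 5 without control siRNA replicate 3, 2 without *PHF6* siRNA1 replicate 3 and 1 without *PHF6* siRNA2 replicate 3.

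The members are given next by role, with the log2 levels of each replicate number in the order control, siRNA1, siRNA2. Among the cyclins, CDK1 and their regulators, *CCNB1*, the cyclin that brings CDK1 into mitosis, had levels of 12.01, 11.96 and 12.04 in replicate 1, 12.57, 12.39 and 11.96 in replicate 2 and 12.42, 12.41 and 12.40 in replicate 3. The siRNA2 array of replicate 2 was as low as replicate 1, while the arrays of replicate 3 lay together above it. *CCNB1* was higher in replicate 3 than in replicate 1 by 0.41 (SE 0.13, adjusted p = 0.0431), a call held in 3 of 9 omissions of 1 array (adjusted p from 0.013 to 0.174), and its difference of -0.14 under both siRNAs had an adjusted p of 0.892. *FOXM1*, the transcription factor that drives the group, had levels of 11.85, 12.02 and 11.81, then 11.95, 12.19 and 12.18, then 11.71, 11.85 and 11.61. It was lower in replicate 3 than in replicate 2 by a log2 difference of -0.38 (SE 0.10, adjusted p = 0.0241), called in 5 of 9 omissions (0.0318 to 0.117), and did not pass between replicates 2 and 1 (0.21, adjusted p = 0.236). *CDC25B*, a phosphatase that activates CDK1, had the largest t statistic of its role between replicates 2 and 1 without passing, with levels of 12.78, 12.94 and 12.91, then 13.12, 13.34 and 13.65, then 13.24, 13.14 and 13.00 (difference 0.49, adjusted p = 0.0525). Its highest array was siRNA2 of replicate 2, an array that was the lowest of its number for *CCNB1*. *CDK1* itself, *CCNA2*, *CCNB2* and *CDC25C* had differences of 0.43, 0.33, 0.34 and 0.17 between replicates 2 and 1 and were not called.

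Among the kinases and their activators, *PLK1*, the Polo-like kinase of spindle assembly and mitotic exit, had levels of 9.24, 9.40 and 9.20 in replicate 1, 9.76, 10.09 and 9.72 in replicate 2 and 9.86, 9.96 and 9.67 in replicate 3. The 3 arrays of replicate 1 were below the other 6, and siRNA1 was the highest array within each number. The mean was 9.28 ± 0.10 in replicate 1, 9.86 ± 0.20 in replicate 2 and 9.83 ± 0.15 in replicate 3 (SD, n = 3). *PLK1* was higher in replicate 2 than in replicate 1 by 0.57 (SE 0.10, 1.49-fold, adjusted p = 0.00735), the smallest adjusted p of the members there, in 7 of 9 omissions and not without *PHF6* siRNA1 replicate 1 (adjusted p = 0.0646) or *PHF6* siRNA1 replicate 2 (0.0593). Against replicate 1, replicate 3 was higher by 0.55 (adjusted p = 0.00383), called in 9 of 9 omissions. Under both siRNAs *PLK1* differed by 0.05 (adjusted p = 0.97), a direction that turned to -0.06 with VSN on the processed signal and -0.01 with 75th percentile scaling, and it was -0.14 without control siRNA replicate 1.

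*AURKA*, the Aurora kinase of the spindle poles, had levels of 11.65, 11.73 and 11.76, then 12.23, 12.17 and 11.87, then 12.09, 12.23 and 12.04. Replicate 1 was again lowest, and *AURKA* was higher in replicate 3 than in replicate 1 by 0.41 (SE 0.11, adjusted p = 0.0233, called in 5 of 9 omissions, 0.0166 to 0.111). *TPX2*, which activates *AURKA*'s product on the spindle, had levels of 12.64, 12.75 and 12.70, then 13.15, 13.05 and 12.99, then 12.73, 12.68 and 12.64. Here replicates 1 and 3 overlapped and replicate 2 stood apart, higher than replicate 1 by 0.37 (adjusted p = 0.0436) and followed by a difference of -0.38 for replicate 3 minus replicate 2 (adjusted p = 0.0199). The first call was lost in each of the 9 omissions of 1 array (0.0534 to 0.165), and the other was held in 5 of 9 (0.0237 to 0.0829). *BIRC5*, survivin, which guides the Aurora B complex to the centromere, had levels of 15.26, 15.23 and 15.30, then 15.71, 15.70 and 15.55, then 15.45, 15.54 and 15.51, and was higher in replicate 2 than in replicate 1 by 0.39 (adjusted p = 0.0354, called in 2 of 9 omissions, 0.0393 to 0.208). *AURKB*, *NEK2* and *PBK* were not called in any comparison, except under alternatives (such as *AURKB* with VSN on the processed signal, *NEK2* without *PHF6* siRNA2 replicate 2 and *PBK* with normexp and quantile normalization). *NEK2*, a centrosome kinase, had the widest spread of them, from 9.14 with control in replicate 1 to 10.18 with control in replicate 2.

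Among the checkpoint genes, *TTK*, the kinase MPS1 that starts checkpoint signaling, had levels of 10.10, 10.22 and 10.36 in replicate 1, 10.76, 10.62 and 10.61 in replicate 2 and 10.24, 10.15 and 10.11 in replicate 3. It was higher in replicate 2 than in replicate 1 by 0.44 (SE 0.11, adjusted p = 0.0371, called in 2 of 9 omissions, 0.0436 to 0.153) and differed by -0.50 between replicates 3 and 2 (adjusted p = 0.0123, called in 7 of 9, 0.0112 to 0.0661). The arrays of replicates 1 and 3 overlapped. *BUB1*, a checkpoint kinase of the kinetochore, had levels of 12.53, 12.43 and 12.55, then 13.10, 12.96 and 12.77, then 12.68, 12.86 and 12.81, and was higher in replicate 2 than in replicate 1 by 0.45 (adjusted p = 0.0415, called in 2 of 9, 0.0327 to 0.225). *BUB1B*, the inhibitor of the anaphase-promoting complex named BUBR1, had levels of 13.03, 13.17 and 12.97, then 13.31, 13.33 and 13.27, then 13.00, 13.13 and 12.78. Replicate 3 minus replicate 2 was -0.34 for it (adjusted p = 0.0339, called in 2 of 9, 0.0451 to 0.159). *BUB3*, the partner that binds both BUB proteins to the kinetochore, had levels of 13.32, 13.43 and 13.54, then 13.46, 13.40 and 13.55, then 13.03, 13.23 and 13.17, and it stood out by its like levels in replicates 1 and 2 (0.04). Its replicate 3 minus replicate 2 difference was -0.33 (adjusted p = 0.0375, called in 1 of 9, 0.0498 to 0.146), and under both siRNAs it differed by 0.12 (adjusted p = 0.889), which was -0.00 without control siRNA replicate 3. *MAD2L1*, which encodes MAD2, was not called, and its highest array, at 12.56, was siRNA2 of replicate 3.

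Among the centromere and kinetochore genes, *CENPA*, the histone variant that marks the centromere, had levels of 10.35, 10.37 and 10.51 in replicate 1, 11.19, 11.07 and 10.68 in replicate 2 and 11.09, 11.11 and 11.02 in replicate 3. Replicate 1 lay below the other 6 arrays. It was higher in replicate 2 than in replicate 1 by 0.57 (SE 0.13, adjusted p = 0.0257, called in 5 of 9 omissions, 0.0127 to 0.144), and replicate 3 was higher than replicate 1 by 0.67 (1.59-fold, adjusted p = 0.00568, called in 9 of 9 omissions but not with VSN on the processed signal), the largest difference of a member in that comparison. *CENPF*, a protein of the outer kinetochore, had levels of 14.99, 15.02 and 14.92, then 15.51, 15.32 and 15.20, then 15.32, 15.36 and 15.34, and was higher in replicate 3 than in replicate 1 by 0.36 (adjusted p = 0.0258, called in 4 of 9, 0.0181 to 0.122). *CENPE*, the kinesin that carries chromosomes to the spindle equator, had levels of 10.84, 11.02 and 11.10, then 11.40, 11.36 and 11.23, then 10.98, 11.15 and 11.15. It had the largest t statistic of the role under both siRNAs, a difference of 0.10 (adjusted p = 0.919) that became -0.02 without control siRNA replicate 1. *NDC80* and *SPC25*, which join the kinetochore to microtubules in 1 complex with *NUF2*, differed by -0.10 and -0.12 between replicates 2 and 1, against 0.39 for *NUF2*, and none of these 3 was called.

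Among the kinesin motors, *KIF23*, the motor of the central spindle, had levels of 11.78, 11.90 and 11.94 in replicate 1, 12.36, 12.35 and 12.23 in replicate 2 and 11.96, 12.11 and 11.92 in replicate 3. Replicate 2 stood above the other 6 arrays, by 0.44 over replicate 1 (SE 0.10, adjusted p = 0.0257, called in 5 of 9 omissions, 0.0343 to 0.152), and replicate 3 minus replicate 2 was -0.32 (adjusted p = 0.0442, called in 1 of 9, 0.0489 to 0.163). *KIF20A*, a motor of cytokinesis, had levels of 9.07, 9.03 and 9.22, then 9.96, 9.69 and 9.29, then 9.52, 9.63 and 9.54. In replicate 2 its levels spread widely, from the control array at the top to the siRNA2 array near replicate 1. It was higher in replicate 3 than in replicate 1 by 0.46 (adjusted p = 0.0437, called in 3 of 9, 0.0158 to 0.168), and under both siRNAs it differed by -0.11 (adjusted p = 0.934), which turned to 0.11 without control siRNA replicate 2. *KIF11*, which slides the poles apart, *KIF2C*, which takes microtubules down at the centromere, and *KIF4A*, a motor of the midzone, were not called, with differences of 0.07, 0.12 and 0.21 between replicates 2 and 1.

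The spindle, midzone and cytokinesis genes held the most calls of any role between replicates 2 and 1, at 4 against 3 for the kinases and their activators. This rank did not hold under every alternative. With VSN on the processed signal only *PLK1* and *PRC1* were called, and with averaged probes *PRC1* and *HMMR* were called in this role and *PLK1*, *TPX2* and *BIRC5* among the kinases. *PRC1*, which bundles microtubules in the midzone, had levels of 13.85, 13.92 and 13.74 in replicate 1, 14.31, 14.33 and 14.27 in replicate 2 and 13.88, 13.98 and 13.78 in replicate 3. Its replicates 1 and 3 overlapped and replicate 2 was tightly grouped above them (14.30 ± 0.03, SD, n = 3). It was higher in replicate 2 than in replicate 1 by 0.46 (SE 0.09, adjusted p = 0.0145, called in 5 of 9 omissions, 0.0208 to 0.0889) and differed by -0.42 between replicates 3 and 2 (adjusted p = 0.0123, called in 8 of 9, and 0.062 without *PHF6* siRNA2 replicate 3). *HMMR*, a spindle pole protein, had levels of 11.41, 11.61 and 11.59, then 12.22, 12.18 and 11.83, then 12.01, 12.06 and 11.97. Replicate 1 was the lowest number, with 0.55 between replicates 2 and 1 (adjusted p = 0.0205, called in 5 of 9, 0.0161 to 0.109) and 0.48 between replicates 3 and 1 (adjusted p = 0.0146, called in 6 of 9, 0.00895 to 0.0655). *ANLN*, the scaffold anillin of the cleavage furrow, had levels of 9.98, 10.17 and 10.56, then 10.99, 10.76 and 10.64, then 10.34, 10.34 and 10.44. *DLGAP5*, which stabilizes the fibers that reach the kinetochore, had levels of 11.33, 11.35 and 11.52, then 12.19, 12.06 and 11.61, then 11.71, 11.88 and 11.88. In both genes siRNA2 was the highest array of replicate 1 and the lowest of replicate 2, so that the treatments ran in opposite order in these 2 numbers. They were higher in replicate 2 than in replicate 1 by 0.56 (adjusted p = 0.0477, called in 2 of 9, 0.0248 to 0.184) and 0.55 (adjusted p = 0.0491, called in 1 of 9, 0.0107 to 0.222). *NUSAP1*, a microtubule binding protein, was not called and read 13.17, 13.26 and 13.47, then 13.56, 13.45 and 13.42, then 13.37, 13.46 and 13.40. Its 0.04 under both siRNAs (adjusted p = 0.96) turned to -0.02 with VSN on the processed signal and to -0.06 without control siRNA replicate 1, and *ASPM*, a spindle pole protein, differed by 0.29 between replicates 2 and 1 without a call.

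Of the 2 chromosome structure genes, *MKI67*, which encodes the Ki-67 antigen that coats mitotic chromosomes and marks dividing cells, had levels of 12.66, 12.68 and 12.90 in replicate 1, 13.19, 13.38 and 13.14 in replicate 2 and 12.33, 12.81 and 12.64 in replicate 3. Replicate 2 was the highest number and the control array of replicate 3 the lowest of all. It was higher in replicate 2 than in replicate 1 by 0.49 (SE 0.12, adjusted p = 0.0374, called in 3 of 9 omissions, 0.0352 to 0.228), and replicate 3 minus replicate 2 was -0.64 (0.642-fold, adjusted p = 0.00788, called in 9 of 9), the largest difference of a member there. The largest difference of a member under both siRNAs was also that of *MKI67*, at 0.20 (SE 0.21, adjusted p = 0.876), and it was -0.00 without control siRNA replicate 3 and 0.43 without control siRNA replicate 2. *TOP2A*, the topoisomerase that untangles sister chromatids, differed by 0.31 between replicates 2 and 1 and was not called.

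Of the 3 anaphase genes, *CDC20*, the activator of the anaphase-promoting complex, had levels of 10.78, 10.76 and 10.92 in replicate 1, 11.45, 11.49 and 11.19 in replicate 2 and 11.42, 11.46 and 11.21 in replicate 3. Replicate 1 lay below the other 6 arrays, and siRNA2 was the lowest array of replicates 2 and 3. It was higher in replicate 2 than in replicate 1 by 0.56 (SE 0.11, adjusted p = 0.0171, called in 5 of 9 omissions, 0.0152 to 0.126) and in replicate 3 than in replicate 1 by 0.54 (adjusted p = 0.00802, called in 8 of 9, and 0.0549 without *PHF6* siRNA1 replicate 1). Under both siRNAs *CDC20* differed by -0.04 (adjusted p = 0.977), which turned to 0.01 with normexp and quantile normalization and to 0.08 without *PHF6* siRNA1 replicate 1. *PTTG1*, which encodes securin, had levels of 14.53, 14.55 and 14.59, then 15.32, 15.25 and 14.83, then 14.74, 14.79 and 14.92, and was higher in replicate 2 than in replicate 1 by 0.58 (1.49-fold, adjusted p = 0.0277, called in 4 of 9, 0.00872 to 0.153), the largest difference of a member in that comparison. *ESPL1*, which encodes separase, the protease that securin restrains, had levels of 13.08, 13.19 and 13.06, then 12.88, 12.91 and 12.99, then 12.81, 12.89 and 12.57. It ran against most members, with replicate 1 highest, and was lower in replicate 3 than in replicate 1, by a log2 difference of -0.35 (SE 0.11, adjusted p = 0.0335, called in 3 of 9, 0.0238 to 0.173).

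**Figure D4:**
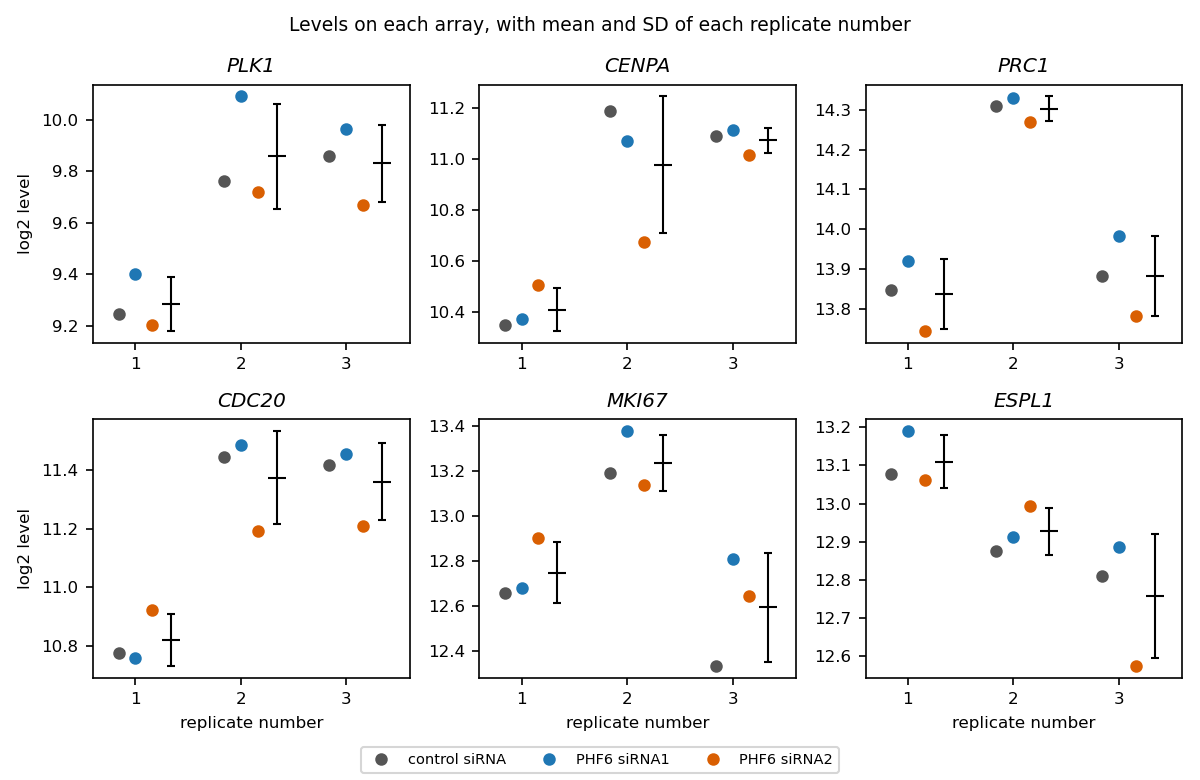
Log2 level on each of the 9 arrays for *PLK1*, *CENPA*, *PRC1*, *CDC20*, *MKI67* and *ESPL1*, by replicate number and colored by treatment, with the mean and SD of each number (n = 3) in black. *PLK1*, *CENPA* and *CDC20* are low in replicate 1 alone, *PRC1* and *MKI67* high in replicate 2 alone, and *ESPL1* is highest in replicate 1.

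The plot of 6 members shows these patterns among the genes of the group. *PLK1* (A_23_P118174), *CENPA* (A_24_P413884) and *CDC20* (A_23_P149200) separate replicate 1 from replicates 2 and 3, whereas *PRC1* (A_23_P206059) and *MKI67* (A_33_P3374210) separate replicate 2 from replicates 1 and 3.

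Some members have further probes, which were read as a check on the brightest. For *PLK1* another probe differed by 0.60 between replicates 2 and 1 (adjusted p = 0.00735). For *CCNB1* another probe differed by 0.55 (adjusted p = 0.0252) where the brightest had 0.30 (adjusted p = 0.194), and for *CENPF* by 0.53 (adjusted p = 0.0103) where the brightest had 0.37 (adjusted p = 0.0546). The other probes of *KIF23* (0.28, adjusted p = 0.239) and *MKI67* (0.36 and 0.23, adjusted p = 0.167 and 0.238) differed in the same direction and were not called. The probes of *BUB3* differed in direction between replicates 3 and 1, at -0.28 for the brightest and 0.05 for the other. The call of *BUB3* was between replicates 3 and 2, and with averaged probes neither it nor *KIF23* was called there. Under both siRNAs the further probes were not called and some lay further from 0 or on its other side: -0.23 for *CENPF* (brightest -0.08), 0.31 for *MKI67* (0.20), -0.19 for *KIF4A* (-0.02), -0.13 for *ASPM* (0.00), -0.08 for *PLK1* (0.05) and -0.04 for *BUB3* (0.12). When the probes of each gene were averaged, 11 members were called between replicates 2 and 1, and 10 of these were among the 14.

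Other genes of mitosis were read from further lists, whose calls are to be read against the 4.35% of all probes called higher in replicate 2 than in replicate 1 and the 4.21% called lower. Of 25 tested other spindle and cytokinesis genes, 4 were higher in replicate 2 than in replicate 1 and 0 lower by limma (13 with an unadjusted p under 0.05). They were *ARHGAP11A* (0.77, adjusted p = 0.00313), *CDCA3* (0.75, adjusted p = 0.00396), *CKS2* (0.68, adjusted p = 0.00805), the small subunit of CDK complexes, and *DEPDC1* (0.54, adjusted p = 0.028). The median of the list was 0.25, with 24 of 25 genes above 0, and 2 calls were left without *PHF6* siRNA1 replicate 1 or *PHF6* siRNA1 replicate 2. Across the scalings the calls in this list ran from 2 (VSN on the processed signal) to 10 (normexp and quantile normalization). Of 20 condensin and cohesin genes, 3 were higher and 0 lower by limma (6 with an unadjusted p under 0.05), namely *SGO2*, which protects cohesin at the centromere (0.68), *RAD21*, a subunit of the cohesin ring (0.54), and *NCAPD2*, of condensin (0.43), and the median was 0.08. Of the 3, 0 were called without control siRNA replicate 1 (5 with an unadjusted p under 0.05 by limma) or *PHF6* siRNA1 replicate 2 (5), and 1 was called higher without *PHF6* siRNA1 replicate 1, *PHF6* siRNA2 replicate 1 or control siRNA replicate 2. With VSN on the processed signal 0 of the 20 were called by limma (4 with an unadjusted p under 0.05), with 75th percentile scaling 1 was higher, and with normexp and quantile normalization 5 were higher and 1 lower. Of 28 other kinetochore and checkpoint genes, *CENPN* (0.43) and *SPAG5* (0.42) were higher, a share of 7.14% that is near the share of all probes, and the median was 0.05, which turned to -0.03 without control siRNA replicate 1 and -0.01 without control siRNA replicate 2. With VSN on the processed signal 0 of the 28 were called by limma (7 with an unadjusted p under 0.05), with 75th percentile scaling 1 was higher, and with normexp and quantile normalization 5 were higher and 1 lower. Of 17 genes of the anaphase-promoting complex, the subunits *CDC27* (0.63) and *ANAPC11* (0.51) were higher, and the median was 0.09. Under the other scalings 1 to 3 of the 17 were higher. Of 12 genes of the G2 checkpoint and mitotic entry, *ARPP19* (0.52) and *BORA* (0.48) were higher and *PKMYT1*, a kinase that inhibits CDK1, was lower (-0.40), and of 12 tested genes of DREAM, MuvB and B-MYB, *TFDP2* was higher (0.99). *PKMYT1* was not called with VSN on the processed signal or 75th percentile scaling, and 1 of the 12 G2 checkpoint genes was higher with the former. The calls in the kinetochore, anaphase-promoting complex and G2 checkpoint lists became 0 without *PHF6* siRNA1 replicate 1 (4, 3 and 3 with an unadjusted p under 0.05 by limma) or *PHF6* siRNA1 replicate 2 (5, 3 and 3). Those of the kinetochore list were also 0 without control siRNA replicate 1 (4 with an unadjusted p under 0.05 by limma), *PHF6* siRNA2 replicate 1 (8) or control siRNA replicate 2 (9), and 1 without *PHF6* siRNA1 replicate 3. Those of the anaphase-promoting complex were 1 higher without control siRNA replicate 1, *PHF6* siRNA2 replicate 1, control siRNA replicate 2 or *PHF6* siRNA2 replicate 2, and those of the G2 checkpoint 1 without control siRNA replicate 1 or control siRNA replicate 2 and 0 without *PHF6* siRNA2 replicate 1 (4 with an unadjusted p under 0.05 by limma).

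**Figure D5:**
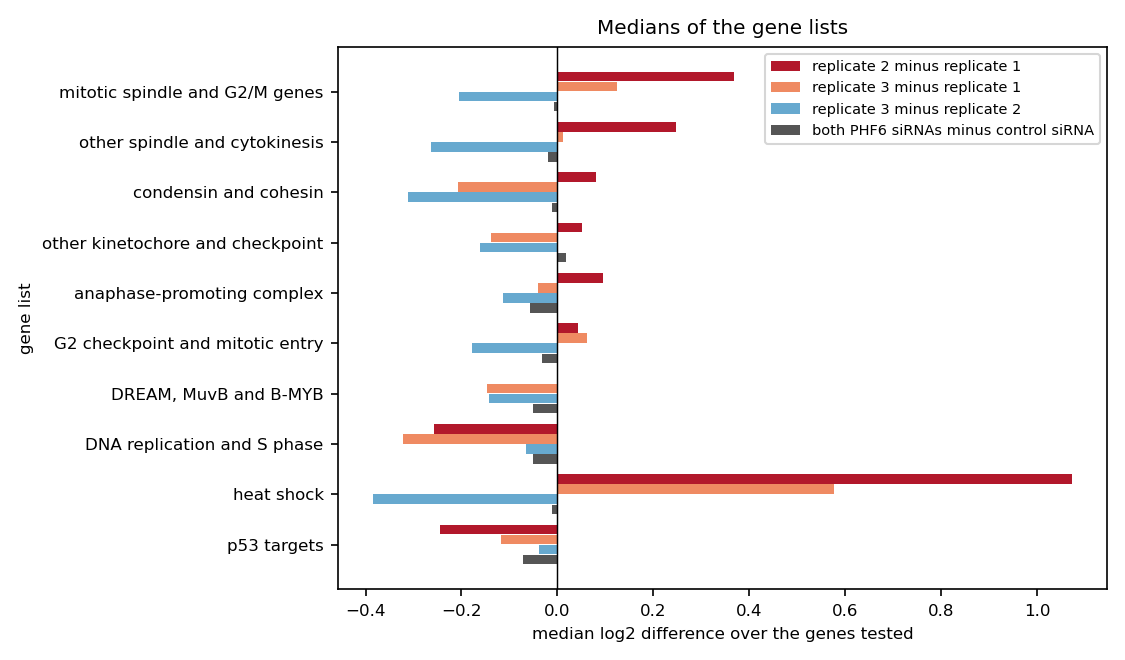
Median log2 difference over the tested genes of each list, for the 3 pairs of replicate numbers and for both *PHF6* siRNAs minus control. The mitotic spindle and G2/M genes have medians of 0.37, 0.12, -0.20 and -0.01, the last changing direction with the scaling, the heat shock list reaches 1.07 and the list of DNA replication and S phase -0.32.

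The plot of list medians places the group beside lists of other functions. The genes of DNA replication and S phase ran the other way between replicates 2 and 1: of 40 genes 6 were lower and 0 higher by limma (22 with an unadjusted p under 0.05 in either direction), with a median of -0.26 and 35 below 0. *CCNE1*, the cyclin of the start of S phase, differed by -0.69 (adjusted p = 0.00617), and *GINS2*, of the replicative helicase, by -0.63 (adjusted p = 0.0117). The median level of the list was 12.80, 12.89 and 12.85 in replicate 1, 12.64, 12.30 and 12.48 in replicate 2 and 12.41, 12.41 and 12.45 in replicate 3. Replicate 1 thus had the lowest medians of the mitotic group and the highest of this list. Between replicates 3 and 1, 20 of the 40 were lower and 0 higher by limma (27 with an unadjusted p under 0.05 in either direction), where 17.3% of all probes were lower and 12.3% higher, led by *TK1*, thymidine kinase (-0.85, adjusted p = 0.000736), and *CDT1*, a licensing factor (-0.72, adjusted p = 0.00166). The count of 6 became 3 without control siRNA replicate 1, 2 without *PHF6* siRNA1 replicate 1 or *PHF6* siRNA2 replicate 1 and 1 without *PHF6* siRNA1 replicate 2, and the count of 20 became 8 without *PHF6* siRNA1 replicate 1, 9 without *PHF6* siRNA2 replicate 1, 10 without control siRNA replicate 3 and 13 without *PHF6* siRNA1 replicate 3 or *PHF6* siRNA2 replicate 3. The count of 6 was 3 with VSN on the processed signal, 4 with 75th percentile scaling and 18 with normexp and quantile normalization, and the count of 20 was 13 with 75th percentile scaling. The difference between the lists was not tested.

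Heat shock genes moved with the replicate numbers too, and by more. Between replicates 2 and 1, 11 of 12 were higher, with a median of 1.07, against 4.35% of all probes, and between replicates 3 and 1, 9 of 12, against 12.3% of all probes. Across the scalings these counts ran from 9 to 12 and from 7 to 11. *HSPA1B*, an inducible HSP70 gene, had a mean level of 9.77 ± 0.21 in replicate 1 (SD, n = 3, with siRNA1 at 9.58, siRNA2 at 9.73 and control above both), 15.18 ± 0.44 in replicate 2 (14.68, 15.53 and 15.31) and 12.54 ± 0.66 in replicate 3 (12.04, 13.29 and 12.31), and differed by 5.41 between replicates 2 and 1 (adjusted p = 2.76e-05). All arrays of replicate 1 lay below the other 6. The probe of its neighbor *HSPA1A*, a nearly identical copy, was well above background on 8 of 9 arrays and had levels of 4.67, 4.72 and 4.93 in replicate 1, 9.81, 12.83 and 13.11 in replicate 2 and 7.0, 11.09 and 9.56 in replicate 3. It was called higher in replicate 2 than in replicate 1, by a difference that is not given because its levels in replicate 1 are low. In replicates 2 and 3 both siRNA arrays lay above the control, and *HSPA1A* was not called under both siRNAs. The median level of the 12 genes was 13.78, 13.52 and 13.52 in replicate 1, 14.64, 14.84 and 14.70 in replicate 2 and 14.23, 14.43 and 14.10 in replicate 3. The count of 11 became 7 without *PHF6* siRNA1 replicate 1, *PHF6* siRNA2 replicate 1 or *PHF6* siRNA1 replicate 2. Of 17 tested p53 targets, *TP53INP1* was higher in replicate 2 than in replicate 1 (1.36, adjusted p = 0.000818) and 4 were lower, led by *SESN2*, a sestrin (-0.89), and *BBC3*, which encodes PUMA (-0.85), and the 4 became 1 with VSN on the processed signal, 2 with 75th percentile scaling, 2 without control siRNA replicate 1 and 1 without *PHF6* siRNA1 replicate 1 or *PHF6* siRNA1 replicate 2. Of 11 T cell markers, *CD1A* (1.39) and *CD1B* (0.80), antigen-presenting molecules of immature T cells, were higher, and 1 was called with VSN on the processed signal or without control siRNA replicate 1, *PHF6* siRNA1 replicate 1 or *PHF6* siRNA1 replicate 2. Of 4 tested B cell markers *CD79B* was lower (-0.73), and 2 were lower without control siRNA replicate 2. Of the 5 tested myeloid markers 0 were called by limma (2 with an unadjusted p under 0.05, and 1 called without control siRNA replicate 2), of 5 erythroid markers 0 (2) and of 3 of fibroblasts and epithelium 0 (0). What part the heat shock response of these cultures, the slide or the row had in the levels of the mitotic genes was not tested. Under both siRNAs 0 genes were called by limma in any of these lists or in the marker lists without the block, and in each list 0 to 2 had an unadjusted p under 0.05.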

How the data were processed

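The authors deposited, for each array, the intensity of every spot from Agilent Feature Extraction, named as version 9.1 in the submitters' processing notes and as 10.5.1.1 in the headers of the files, and flags (0 or 1) for spots well above background or marked as outliers. They also deposited log2 values normalized with VSN, which served as an alternative. From the intensities, outlier spots were left out, repeated spots averaged, and VSN fitted by code written here (7 iterations, quantile 0.9), which gives log2 values. Of the 33586 probes marked well above background on 3 or more arrays, 77 with an outlier spot on some array were dropped and 33509 tested. Transcript identifiers were named with the RefSeq gene table of GRCh38.p14, and 25728 of 57176 probes had 1 symbol. No gene positions are given from it, since the arrays were annotated on another build.

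The treatment comparisons used limma 3.58.1 in R 4.3.3 with 3 groups, and the replicate comparisons the replicate number plus treatment, with Benjamini-Hochberg adjustment over all probes and a threshold of 0.05. That p measures the spread between single arrays. Python 3, numpy, scipy and matplotlib made the other steps. Samples of the same number deviated together from their group means (r of 0.31 to 0.75 across probes in 9 pairs, and -0.57 to 0.13 in 18 pairs with different numbers), so that the numbers in the labels pair the samples. Probes are not independent replicates.

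The members and lists were chosen with earlier results of these data known. Named with levels on every array are *PHF6*, in each role the member with the largest moderated t under both siRNAs and between replicates 2 and 1, and up to 20 called members by p, with *KIF20A* and *CCNB1* falling under the former rule. Of other lists, the called genes with the 2 largest changes in a direction are named. Chosen after their values were seen were further genes of a list, and *NEK2* and *MAD2L1* among the members not called. The lists were condensin and cohesin, other kinetochore and checkpoint, the anaphase-promoting complex, other spindle and cytokinesis, the G2 checkpoint, DREAM, DNA replication, heat shock, p53 targets, and T cell, B cell, myeloid, erythroid, fibroblast and epithelial markers.

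Alternatives were VSN on the processed signal, 75th percentile scaling, normexp (offset 50) with quantile normalization, the deposited log2 table, other filters, outlier spots kept, an intensity trend with a robust prior, the mean of a gene's probes, a replicate or slide block, no treatment term, and leaving out each array. The block under each scaling was chosen after seeing the data.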

Additional observations from a re-analysis of the deposited data

Results flagged for a closer look

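Under the *PHF6* siRNAs the mitotic genes lay mostly on opposite sides of the control array in replicates 1 and 2, by values from single arrays that were not called. The median log2 difference of the members from control, over the 2 siRNA arrays of a number, was 0.13 in replicate 1 and -0.15 in replicate 2, which differ by 0.28, and 23 of the 41 members lay above control under both siRNAs in replicate 1 and below it under both in replicate 2, against 0 the other way round. Between replicates 1 and 3 these counts were 4 and 0, and between replicates 2 and 3, 1 and 16. The share of all probes with such opposite sides was not computed, so the counts cannot be read as particular to the members. The genes given next are those, of the member with the largest t statistic of each role under both siRNAs, for which the siRNA arrays lay on opposite sides of the control in 2 numbers. Other members differed by more, up to 0.96 for *NEK2* (0.43 in replicate 1 and -0.54 in replicate 2), and *CDC25B* was the 1 that ran against the 16, at 0.37 in replicate 2 and -0.17 in replicate 3. For *CENPE* the mean difference from control was 0.23 in replicate 1, -0.11 in replicate 2 and 0.17 in replicate 3. Replicate 1 minus replicate 2 was thus 0.33 and replicate 2 minus replicate 3 -0.27, with both siRNA arrays on the same side of the control within each number. For *KIF20A* it was -0.46 in replicate 2 and 0.07 in replicate 3, which differ by -0.53. For *NUSAP1* it was 0.19 in replicate 1, -0.13 in replicate 2 and 0.06 in replicate 3, so that replicate 1 minus replicate 2 was 0.32 and replicate 2 minus replicate 3 -0.19. With normexp and quantile normalization siRNA1 in replicate 2 had a median of 0.06, with 30 of 41 members above 0. None of these differences was tested. Each number holds a single control array, so that a level of that array shifts both siRNA differences of its number together.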

How the results depend on the processing

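The count of 0 members called under both siRNAs, siRNA1, siRNA2 or between the siRNAs (limma, with all arrays 0 at an unadjusted p under 0.05, or 1 between the siRNAs with the replicate number as a block) held under every alternative run. The replicate number as a block changed no other call among the members, and *PHF6* had an adjusted p of 8.13e-05 with it. Counts between replicates 2 and 1 were 2 with VSN on the processed signal, 3 with 75th percentile scaling, 23 with normexp and quantile normalization, 1 with no filter on dim probes, 23 with an intensity trend and robust prior and 8 with no treatment term. Between replicates 3 and 1 they were 4 with VSN on the processed signal, 15 with normexp and quantile normalization (median 0.20), 4 with no filter and 14 with a trend and robust prior. Between replicates 3 and 2 they were 3 with 75th percentile scaling, 3 with no filter and 4 with no treatment term, and the median was -0.10 with normexp and quantile normalization. These are counts of members, and the calls among all probes changed with the scaling too. Without the filter, dim probes join the adjustment, and the other causes were not tested.

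Under both siRNAs *PLK1* turned to -0.0602 with VSN on the processed signal and -0.00934 with 75th percentile scaling, with or without the block, and to -0.0120 when probes were averaged. *NUSAP1* turned to -0.0224 with VSN on the processed signal, with or without the block, and to -0.0351 with the block and without replicate 1. *KIF20A* turned to 0.0623 with the block and without replicate 2, and *CDC20* to 0.0121 with normexp and quantile normalization, with or without the block. The cause was not tested.

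Leaving out 1 array, the counts ran from 0 to 19 between replicates 2 and 1 (limma, 24 at an unadjusted p under 0.05 without *PHF6* siRNA1 replicate 1), from 2 to 13 between replicates 3 and 1 and from 1 to 9 between replicates 3 and 2, and the medians from 0.28 to 0.44, 0.0392 to 0.20 and -0.27 to -0.12. Under both siRNAs *PLK1* ran from -0.14 to 0.17, *BUB3* from -0.00293 to 0.22, *CENPE* from -0.0220 to 0.26, *KIF20A* from -0.34 to 0.11, *NUSAP1* from -0.0568 to 0.14, *MKI67* from -0.000511 to 0.43 and *CDC20* from -0.26 to 0.0757. An arm left with 2 arrays borrows its spread from the other arms. All members lay well above background.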

Other observations

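Outside the mitotic genes, some genes of the marker and p53 lists were called under the *PHF6* siRNAs when the replicate number was a block, and 0 without it by limma (0 to 2 in each list at an unadjusted p under 0.05). With the block 2.74% of all probes were called under both siRNAs, 0.961% under siRNA1 and 1.66% under siRNA2. The calls under both siRNAs, to be read against the first share, were 2 of 11 T cell markers (18.2%), 1 of 4 B cell markers (25%), 1 of 3 markers of fibroblasts and epithelium (33.3%) and 1 of 17 p53 targets (5.88%). With each single siRNA, 2 T cell markers, 1 marker of fibroblasts and epithelium and 1 p53 target were called. Of the B cell markers 0 were called by limma with either siRNA (1 with siRNA1 and 2 with siRNA2 at an unadjusted p under 0.05). Of the 11 T cell markers 8 lay below 0 and 3 above, the highest being *CD1A* at 0.71 (adjusted p = 0.0726, not called). *CD7*, a surface protein of T cells, had levels of 13.45, 12.89 and 12.91 in replicate 1 (control, siRNA1, siRNA2), 13.11, 12.29 and 12.54 in replicate 2 and 13.31, 12.32 and 12.25 in replicate 3, below control on both siRNA arrays of each number, and fell with both siRNAs by a log2 difference of -0.76 (limma, adjusted p = 0.0123). *PTCRA*, the pre-T cell receptor alpha chain, had levels of 8.56, 7.66 and 8.23, then 8.95, 7.85 and 8.30, then 8.08, 7.24 and 7.53, and fell by -0.73 (adjusted p = 0.0083). *CD79B*, a signaling chain of the B cell receptor, fell by -0.48 (adjusted p = 0.0414). *KRT18*, a keratin, rose by 0.77 (adjusted p = 0.0138) and *TP53INP1*, a p53 target, by 0.69 (adjusted p = 0.0236), while *BBC3* fell with siRNA1 by -0.66 (adjusted p = 0.0422). These calls with the block were not recomputed without single arrays.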
